A study of Rattus norvegicus with 12 samples.

Results

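Genes of Toll-like receptor signalling and of the adaptors that nucleic acid sensors share were followed in primary rat hepatocytes treated with interferon alpha, an antiviral cytokine. The gene set holds Tlr3, Tlr7, Tlr9, Myd88, Ticam1, Zbp1, Unc93b1, Tbk1, Ikbke and Mavs, and every probe set that the platform annotation assigns to 1 of these symbols was taken. Of the 10 genes, 7 were represented, by 9 of the 31042 probe sets tested, against 14217 genes represented in all. Ticam1 and Mavs had 2 probe sets each and the other 5 genes had 1. Tlr3, Tlr9 and Ikbke are not listed in the annotation and were not analysed here.

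Toll-like receptors recognise microbial molecules, and those that sense nucleic acids sit in endosomes, to which Unc93b1 carries them. They signal through the adaptor Myd88 or, for Tlr3 and Tlr4, through Ticam1 (TRIF), whereas cytosolic RNA sensors signal through Mavs on mitochondria. Ticam1 and Mavs lead to the kinases Tbk1 and Ikbke, which activate interferon regulatory factors, and Zbp1 binds nucleic acids in the Z form. In the liver, Toll-like receptors are best known from Kupffer cells, the resident macrophages.

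Hepatocytes of Wistar background were freed from liver with collagenase and separated on Percoll, and from the next day they stayed untreated or received 250 U/ml of rat interferon alpha, in each case for 3 h or 6 h. The 4 groups are control at 3 h, interferon alpha at 3 h, control at 6 h and interferon alpha at 6 h, each with 3 arrays labelled as biological replicates 1 to 3. All groups share the isolation and the short-term culture. The labels do not say whether a replicate number stands for 1 animal, so the p-values measure the spread between these samples. Where the replicate number entered the fit as a block, they rest on the spread left after differences between the numbers. Values are log2 RMA values, that is, normalised probe set intensities on a log2 scale, and the array medians lay between 5.16 and 5.21 and the lower quartiles between 3.84 and 3.93. The number of arrays limits the precision of each value.

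The hepatocyte identity of the cultures was checked on markers. The mean of the 7 measured hepatocyte markers, among them Alb, lay between 13.23 and 13.45 on each of the 12 arrays. Of 10 measured Kupffer cell and macrophage markers, Adgre1 alone lay below the lower quartile on all arrays. The mean of the 10 ran from 4.64 to 6.02 in control and from 4.73 to 5.87 in treated arrays at 3 h, and from 4.69 to 5.96 and 4.77 to 5.99 at 6 h. It was 5.87 to 6.02 on the 4 arrays of replicate 1, 4.64 to 4.77 on those of replicate 2 and 4.97 to 5.14 on those of replicate 3. The order of the replicate numbers was thus the same in every condition. In RNA from a whole culture, fewer cells of a type and less RNA per cell cannot be told apart.

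Differences were estimated with limma over all probe sets, without and with the replicate number as a block, which compares arrays of the same number. A probe set rose or fell where its adjusted p (Benjamini-Hochberg over all 31042) was under 0.05. At 6 h, Unc93b1 and Myd88 rose under interferon alpha when the replicate number was a block. Without the block 0 of the 9 probe sets passed, against 0.387% of all probe sets, and 4 had an unadjusted p under 0.05, against 3.69% of all. With it 2 of the 9 rose, against 1.06%. On 1 probe set per gene, the 7 genes had a median difference of 0.25 log2 at 6 h, and over all probe sets the median was -0.02. All 3 treated arrays lay above all 3 controls at 6 h in 3 of the 9 probe sets, those of Unc93b1, Myd88 and Zbp1, against 4.29% of all probe sets. At 3 h this held for 0 of the 9, against 4.53%.

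**Figure D1:**
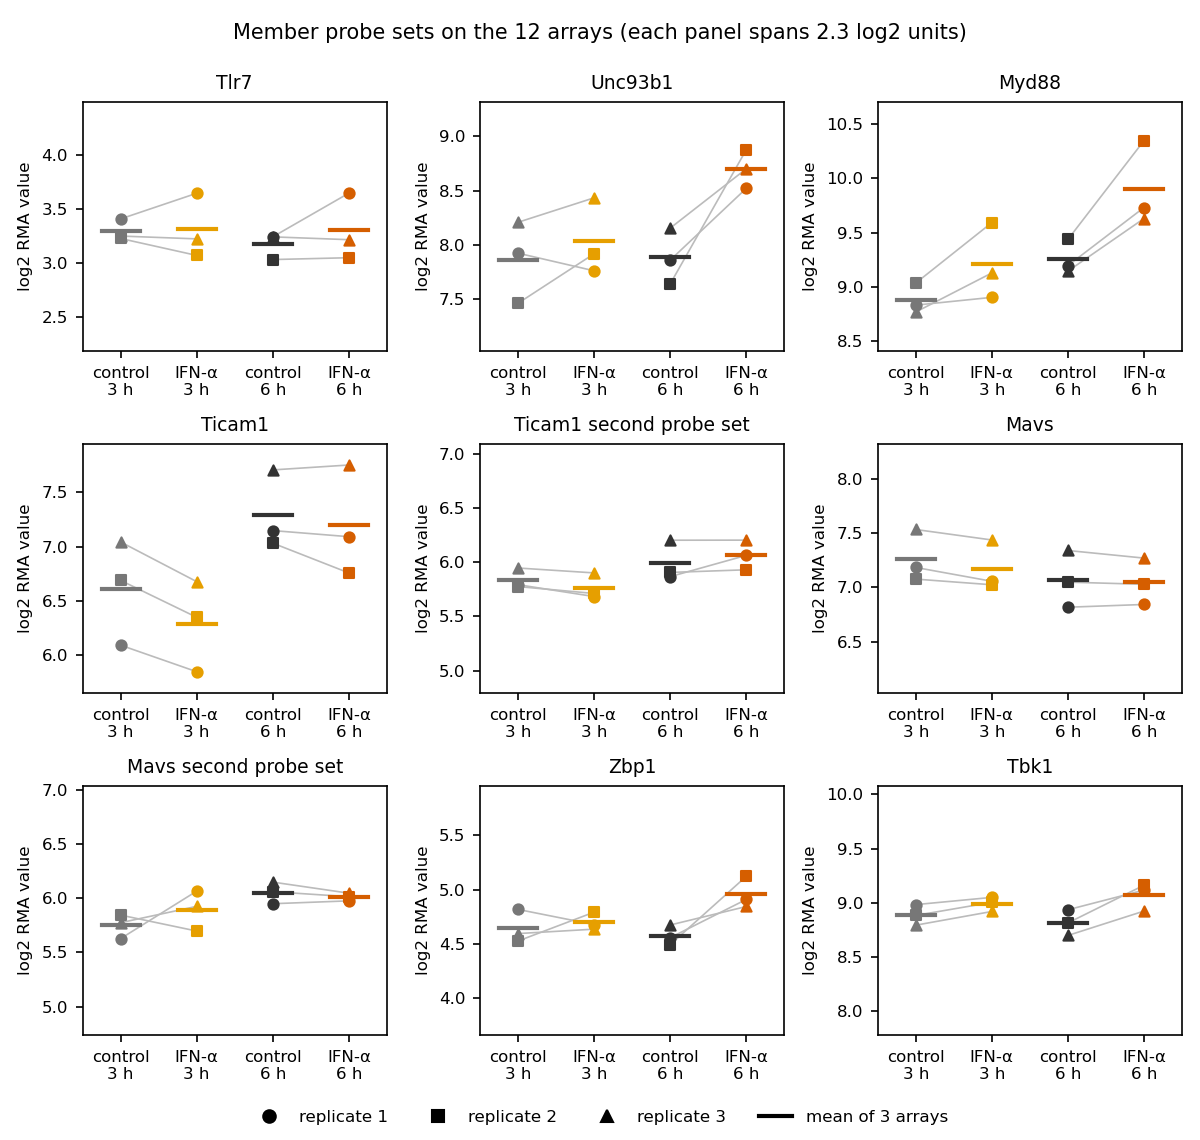
Log2 RMA values (vertical axis) of the 9 probe sets in the 4 groups (horizontal axis). Points are arrays, their shape gives the replicate number, thick bars are means of 3 arrays, thin lines join treated and control arrays of the same number, and every panel spans the same log2 range. The 3 treated arrays at 6 h lie above the 3 controls for Unc93b1, Myd88 and Zbp1, Tlr7 stays between 3.03 and 3.64, and both Ticam1 means at 6 h, 7.30 and 7.20, exceed those at 3 h, 6.61 and 6.29.

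Unc93b1, the chaperone that brings nucleic acid-sensing Toll-like receptors to endosomes, had the largest difference of the 9 probe sets at 6 h. At 6 h its log2 values were 7.86, 7.64 and 8.15 in control replicates 1, 2 and 3, and 8.52, 8.88 and 8.70 in the treated ones. The treated arrays stood apart from the controls, and replicate 2, the lowest control, was the highest treated array. The difference was 0.82 ± 0.16 log2 (SE of the blocked fit), or 1.76-fold with a 95% confidence interval of 1.39 to 2.23 (limma, blocked adjusted p = 0.0299, 0.393 without the block). At 3 h the values were 7.92, 7.46 and 8.21 in controls and 7.76, 7.92 and 8.43 in treated arrays, which overlapped. There, replicate 1 was lower and replicates 2 and 3 were higher with treatment, and the difference was 0.17 ± 0.16 log2 (blocked adjusted p = 0.864). The change of the interferon difference from 3 h to 6 h was 0.64 ± 0.22 log2 and did not pass (blocked adjusted p = 0.906, 1.00 without the block). The blocked call at 6 h ended when any replicate number was left out of all groups (adjusted p = 0.112, 0.211 and 0.130 without replicates 1, 2 and 3). The difference then ranged from 0.60 log2 without replicate 2 to 0.95 without replicate 3.

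Myd88, the adaptor of most Toll-like receptors and of the interleukin-1 receptor family, was higher with interferon alpha in all 6 same-number pairs. Its control values at 6 h were 9.20, 9.44 and 9.14 in replicates 1 to 3, and its treated values were 9.73, 10.35 and 9.63. The groups did not overlap, and replicate 2 was the highest array on both sides. The difference was 0.64 ± 0.11 log2, or 1.56-fold with an interval of 1.33 to 1.84 (limma, blocked adjusted p = 0.0121, 0.741 without the block). At 3 h the controls were at 8.83, 9.03 and 8.77 and the treated arrays at 8.90, 9.59 and 9.13. These groups overlapped, since treated replicate 1 lay below control replicate 2, and the difference of 0.33 ± 0.11 log2 did not pass (blocked adjusted p = 0.588). Averaged over both times, Myd88 rose by 0.49 ± 0.08 log2 (blocked adjusted p = 0.00751, 0.574 without the block) and was the 1 of the 9 probe sets that passed in this average, against 1.02% of all that rose. Without the block 0 of 9 passed in the average, against 0.435% of all, with 4 at an unadjusted p under 0.05, against 4.48% of all. The blocked call at 6 h held without replicate 1 (adjusted p = 0.0477) and ended without replicate 2 or 3 (0.214 and 0.133), as did that of the average (0.0188 without replicate 1, 0.216 and 0.127 without the others).

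Myd88 was also higher at 6 h than at 3 h in untreated culture. Its control arrays at 6 h all lay above those at 3 h, as did those of the second Mavs probe set. This order was found in 7.82% of all probe sets. The same-number differences of Myd88 were 0.36, 0.40 and 0.38 log2, yet the mean of 0.38 ± 0.11 log2 missed the threshold (blocked adjusted p = 0.0540, 0.598 without the block). Its 4 group means therefore ran from 8.88 ± 0.14 (SD, n = 3) in control at 3 h through 9.21 ± 0.35 with interferon at 3 h and 9.26 ± 0.16 in control at 6 h to 9.90 ± 0.39 with interferon at 6 h. The middle neighbours in this order differed by less than their spread.

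The promoter of Myd88 is shown because the gene rose at 6 h in the blocked fit and its window held both motifs that were searched. That of Tbk1 is shown as a window without either. Sequences are those of RefSeq on GRCr8, and 4 of the 7 measured genes (Tlr7, Myd88, Tbk1 and Mavs) are in the promoter table, which gives 250 bases before to 50 after a gene's start. The motifs were the interferon-stimulated response element, bound by interferon-activated factors and written as GAAA, any 2 bases and GAAA, and the gamma-activated site, bound by STAT dimers and written TTCNNNGAA, each on both strands. The 250 bases before the start are printed 5′ to 3′ on the gene's strand, with matches in capitals.
Myd88, chr8:127956231-127956480, minus strand: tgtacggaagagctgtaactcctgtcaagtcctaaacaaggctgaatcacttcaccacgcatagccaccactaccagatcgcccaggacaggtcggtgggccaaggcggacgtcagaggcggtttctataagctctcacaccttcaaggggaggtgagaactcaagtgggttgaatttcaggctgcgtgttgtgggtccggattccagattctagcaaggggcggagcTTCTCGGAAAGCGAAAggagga
Tbk1, chr7:58996358-58996607, minus strand: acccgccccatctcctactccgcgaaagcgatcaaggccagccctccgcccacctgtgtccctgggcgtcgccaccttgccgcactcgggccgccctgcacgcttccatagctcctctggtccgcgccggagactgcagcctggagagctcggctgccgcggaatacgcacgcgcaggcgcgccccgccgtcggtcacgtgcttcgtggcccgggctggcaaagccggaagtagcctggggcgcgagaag
In Myd88 the response element matched as GAAAGCGAAA with its first base at position -16 from the start, and the gamma-activated site matched as TTCTCGGAA from -22, so that they share 3 bases. Of 33469 promoter windows of 300 bases, 3.92% held the response element and 8.87% the gamma-activated site. The windows of Tlr7, Tbk1 and Mavs held neither. A match describes the letters alone, since binding was not measured.

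Tlr7, the endosomal receptor of single-stranded RNA, was at the dim end of the arrays. Its values were 3.41, 3.23 and 3.25 in controls and 3.64, 3.07 and 3.22 in treated arrays at 3 h. At 6 h they were 3.24, 3.03 and 3.24 in controls and 3.64, 3.05 and 3.22 in treated arrays. All 12 lay below the lower quartile of their array, a range in which signal and background are hard to separate, and the groups overlapped at both times. The highest array of each treated group was replicate 1, whose arrays also had the highest macrophage marker means, and the part of macrophage RNA in this was not tested. The difference at 6 h was 0.13 log2 with a blocked 95% interval of -0.09 to 0.35, and at 3 h 0.02 with an interval of -0.20 to 0.24. Among other Toll-like receptors, Tlr1 and Tlr8 lay below the lower quartile on all 12 arrays, Tlr4 on 11 and Tlr2 on 2.

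Ticam1, the adaptor of Tlr3 and Tlr4 known as TRIF, passed between times on its brighter probe set, with the block alone, and had no call with interferon. On its brighter probe set the control values were 6.09, 6.69 and 7.04 at 3 h and 7.15, 7.03 and 7.71 at 6 h in replicates 1 to 3. Each replicate was higher at 6 h, by 1.06, 0.34 and 0.66 log2, although the lowest array at 6 h was just under the highest at 3 h. Ticam1 rose from 3 h to 6 h without treatment by 0.69 ± 0.16 log2, or 1.61-fold with an interval of 1.27 to 2.04 (limma, blocked adjusted p = 0.0221, 0.505 without the block). It was the 1 of the 9 probe sets to do so, against 3.33% of all that rose with the block. Counting both directions, 1 of the 9 passed with the block, against 2529 of all 31042 probe sets. On 1 probe set per gene, 3.57% of all genes rose and 6.22% fell in that fit, so such calls were common. Without the block 0 of 9 passed, against 0.19% of all, and 1, the second Mavs probe set, had an unadjusted p under 0.05, against 10.1% of all. The blocked call of Ticam1 held without replicate 2 (0.0211) and ended without replicate 1 or 3 (0.156 and 0.157). The second Ticam1 probe set was 0.15 ± 0.07 log2 higher in untreated culture and did not pass (blocked adjusted p = 0.235).

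With interferon alpha, Ticam1 was lower in all 3 pairs at 3 h, by values of -0.24, -0.34 and -0.37 log2. Its treated arrays there were at 5.85, 6.35 and 6.68, so that the groups overlapped and treated replicate 1 lay below every control. The mean difference of -0.32 ± 0.16 log2 did not pass (blocked adjusted p = 0.762). The second probe set was at -0.07 ± 0.07 log2 at 3 h (blocked adjusted p = 0.879). At 6 h the treated arrays were at 7.09, 6.76 and 7.75 and the difference was -0.10 log2 with a blocked interval of -0.44 to 0.25, while the second probe set was at 0.07 with an interval of -0.08 to 0.23. These intervals run from 0.739-fold to 1.19-fold for the brighter probe set and from 0.945-fold to 1.17-fold for the second.

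Mavs, the mitochondrial adaptor of RIG-I and MDA5, gave the smallest difference at 6 h among the brightest probe sets of the 7 genes. Its values at 6 h were 6.82, 7.05 and 7.34 in controls and 6.84, 7.03 and 7.27 in treated arrays, so that treated and control arrays of a number lay close together. The difference was -0.02 log2 with a blocked interval of -0.20 to 0.16, and that of the second probe set -0.04 with an interval of -0.26 to 0.18. At 3 h the controls were at 7.18, 7.08 and 7.53 and the treated arrays at 7.06, 7.02 and 7.44, a difference of -0.09 ± 0.08 log2 (blocked adjusted p = 0.859). The second probe set went the other way at 3 h, at 0.15 ± 0.10 log2 (0.825), with same-number differences of 0.44, -0.15 and 0.15. In untreated culture the 2 probe sets of Mavs disagreed in direction as well. The brighter was at -0.20 ± 0.08 log2 at 6 h against 3 h and the second at 0.30 ± 0.10, with blocked adjusted p of 0.178 and 0.0959.

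Zbp1, a sensor of Z-form nucleic acids that can engage the cell death kinase Ripk3, lay below the median of every array. At 6 h its values were 4.56, 4.49 and 4.67 in controls and 4.91, 5.12 and 4.84 in treated arrays, without overlap. The difference of 0.38 ± 0.10 log2, or 1.31-fold with a blocked interval of 1.12 to 1.53, did not pass (blocked adjusted p = 0.180, 0.404 without the block). At 3 h the values were 4.82, 4.53 and 4.59 in controls and 4.68, 4.79 and 4.63 in treated arrays, which overlapped, and the difference was 0.06 ± 0.10 log2. Zbp1 was the 1 of the 9 probe sets with an unadjusted p under 0.05 for the change of the interferon difference between times in the unblocked fit (0.33 ± 0.15 log2, unadjusted p = 0.0479, adjusted p = 1.00), against 2.17% of all. In the blocked fit 2 of the 9 were under 0.05 before adjustment, Unc93b1 (limma, unadjusted p = 0.0141) and Zbp1 (0.04535). The share of all probe sets in that fit is not given here, so this count cannot be set against it. For this change 0 of 9, and 0% of all probe sets, passed in either fit.

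Tbk1, the kinase that phosphorylates Irf3, was higher with interferon alpha in all 6 pairs, by small amounts. The same-number differences were 0.07, 0.12 and 0.13 log2 at 3 h and 0.18, 0.35 and 0.23 at 6 h. At 6 h the controls were at 8.94, 8.81 and 8.70 and the treated arrays at 9.12, 9.16 and 8.92, so that treated replicate 3 lay just below control replicate 1. At 3 h the controls were at 8.98, 8.88 and 8.79 and the treated arrays at 9.05, 9.00 and 8.92. The difference at 6 h, 0.25 ± 0.07 log2 or 1.19-fold (1.07 to 1.32), did not pass (blocked adjusted p = 0.194, 1.00 without the block), nor did that at 3 h, 0.10 ± 0.07 (0.818).

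At 3 h 0 of the 9 probe sets passed by limma, without the block (0.00644% of all) or with it (0.0966%). At an unadjusted p under 0.05 there were 0 without the block, against 2.95% of all. With the block there was 1, Myd88 (limma, unadjusted p = 0.0108), and the share of all in that fit is not given here. The median difference of the 7 genes at 3 h was 0.06 log2, and that of all probe sets -0.01.

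**Figure D2:**
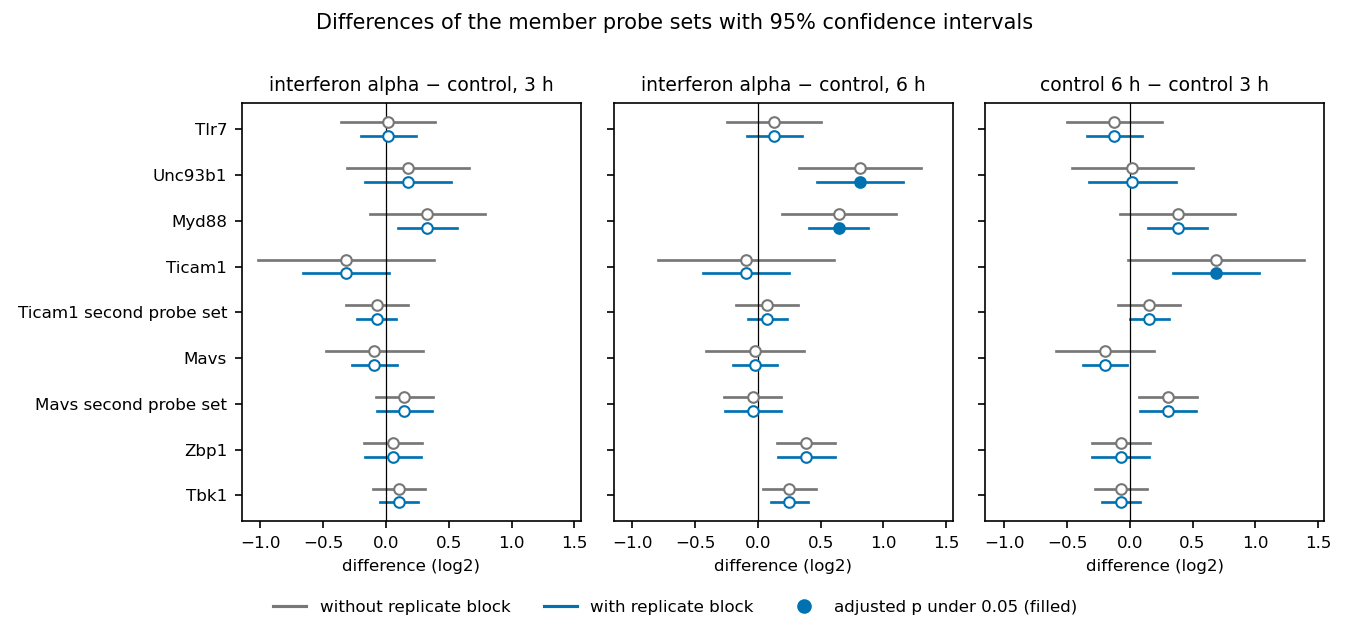
Log2 differences (horizontal axis) of the 9 probe sets for interferon alpha minus control at 3 h and at 6 h and for control at 6 h minus control at 3 h. Bars are 95% confidence intervals of limma fits without (grey) and with (blue) the replicate block, and filled points have an adjusted p under 0.05. Unc93b1 (0.82) and Myd88 (0.64) at 6 h and Ticam1 (0.69) in untreated culture are filled, in the blocked fit alone.

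Cell type markers were set beside the differences of Unc93b1 and Myd88 pair by pair. In replicates 1, 2 and 3 at 6 h the mean of the Kupffer cell and macrophage markers differed by 0.03, 0.08 and -0.17 log2 between treated and control arrays, while Unc93b1 differed by 0.66, 1.24 and 0.55 and Myd88 by 0.54, 0.91 and 0.48. The mean of 4 measured B cell markers differed by -0.25, -0.11 and 0.12 log2. Of 7 listed plasmacytoid dendritic cell markers only 2, Tcf4 and Il3ra, were measured, and their mean differed by -0.14, 0.20 and -0.02. The mean of 6 liver endothelial markers differed by -0.30, 0.04 and -0.16 log2. Differences at 6 h were of both signs in these lists and in those of T and NK cells, stellate cells and neutrophils. The hepatocyte marker mean was above 0 in all 3 pairs, by 0.04, 0.05 and 0.04 log2. Among these markers Hnf4a differed by 0.34 log2 at 6 h without passing (limma, blocked adjusted p = 0.173). The others lay between -0.03 (Cps1) and 0.02 (Alb), and the median of the 7 was 0.0003. The part of any of these cells in the result was not tested.

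The genes with array profiles closest to the 3 members of largest 6 h difference were found by the root mean square difference of centred log2 values over the 12 arrays, among 13982 genes. For Unc93b1 these were RT1-S3, a class Ib MHC gene (0.158 log2), the mitochondrial ATPase gene Atad1 (0.167) and Aida (0.176), against a median of 0.448 for all genes. Aida and Atad1 rose at 6 h with the block, by 0.95 and 0.64 log2 (blocked adjusted p = 0.0120 and 0.0205), and RT1-S3 was 0.66 higher without passing (0.0623). For Myd88 they were Whamm (0.150), Tmem140 (0.172) and Tut4, an RNA uridylyltransferase gene (0.175), against a median of 0.471, and Tut4 rose by 0.87 log2 (blocked adjusted p = 0.00321). For the dim Zbp1 they were Rcvrn, Tnnt2 and SIRT2 (0.0794 to 0.0894, median 0.245), of which 0 passed at 6 h by limma in either fit. The 3 members were picked by their 6 h difference, and their neighbours by likeness over the same 12 arrays. Similar 6 h differences among the neighbours therefore follow from the choice and are not separate evidence.

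In the wider pathway, the genes that rose with interferon alpha belonged to cytosolic RNA sensing, which signals through Mavs. Of 52 other pathway genes measured, 3 rose and 0 fell at 6 h by limma without the block, and 4 rose with it, against 0.563% and 1.45% of all genes on 1 probe set each. Their median difference was 0.05 log2, and that of all genes -0.02. These 4 belong to the 5 measured genes of cytosolic nucleic acid sensing, whose median was 1.47 log2. Ifih1 (MDA5) rose by 2.14 ± 0.21 log2 (SE and p of the blocked fit, adjusted p = 0.000456), and Rig1, the symbol given for RIG-I, by 1.77 ± 0.20 (0.000774). Dhx58 (LGP2) rose by 1.47 ± 0.17 (0.000815), and Trim25, a ubiquitin ligase of RIG-I, rose by 1.07 ± 0.16 with the block (0.00580, 0.0505 without it). The fifth, Sting1, was at 0.05 ± 0.11. At 3 h 0 of the 52 passed by limma, with or without the block, where 0.106% and 0.00703% of all genes rose. The pathway lists were chosen with earlier results of these data known, so their counts beside the shares of all genes are not separate evidence.

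Of 4 other Toll-like receptors, 10 receptor cofactors and trafficking genes, 17 adaptors and proximal kinases, 8 partners of Tbk1 and the IKK complex and 8 brakes, 0 passed at 6 h by limma with or without the block. Their median differences ran from -0.01 log2 for the Tbk1 and IKK partners to 0.09 for the brakes. The brightest receptors were Tlr2 at 0.07 ± 0.16 log2 and Tlr4, the endotoxin receptor, at -0.04 ± 0.08. Among cofactors, the endosomal protease gene Ctsl was at 0.01 ± 0.07 and Hsp90b1, a chaperone of Toll-like receptors, at 0.01 ± 0.07. Azi2, an adaptor of Tbk1 chosen after its values were seen, differed by 0.53 ± 0.12 log2 without passing (blocked adjusted p = 0.0646).

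**Figure D3:**
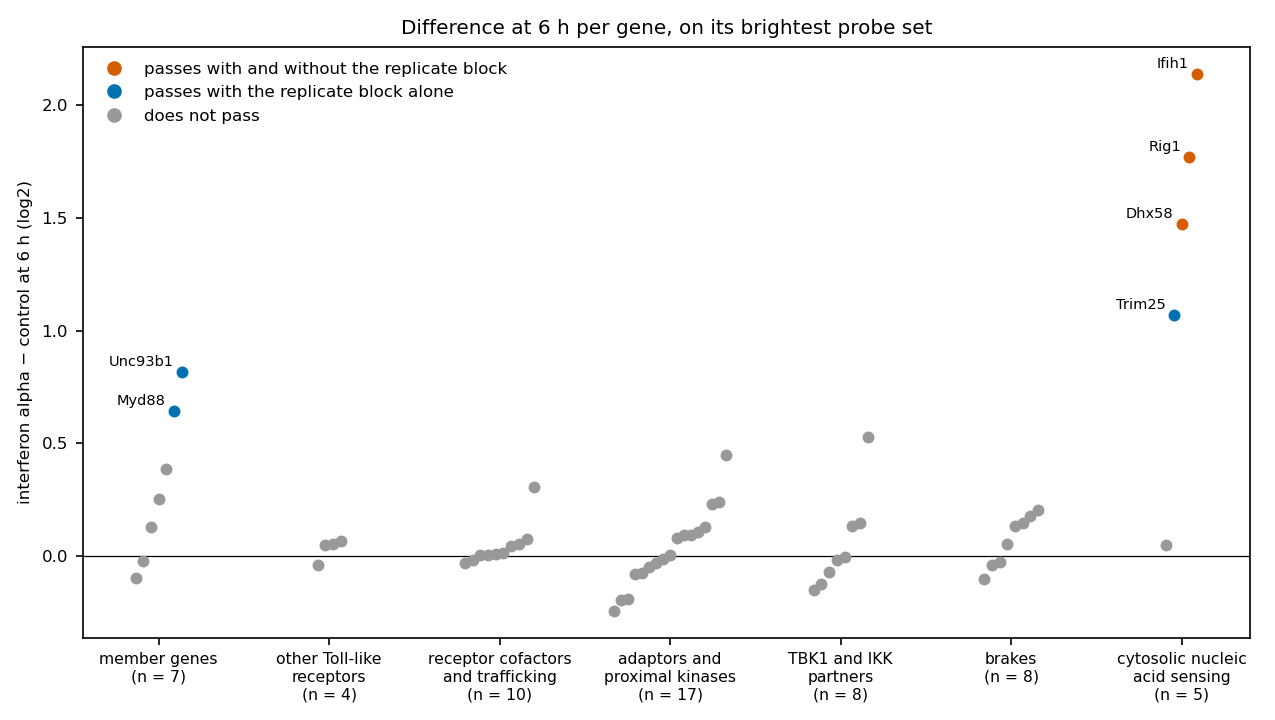
Log2 difference between interferon alpha and control at 6 h (vertical axis) for each gene on its brightest probe set, by role (horizontal axis, n is the number of genes). Orange points pass with and without the replicate block, blue points with the block alone and grey points in neither. Ifih1 (2.14), Rig1 (1.77) and Dhx58 (1.47) are orange, and Trim25 (1.07), Unc93b1 (0.82) and Myd88 (0.64) are blue.

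In untreated culture from 3 h to 6 h, 1 of the 52 pathway genes rose and 5 fell with the block, against 3.57% and 6.22% of all genes, and 0 passed without it by limma. Tbkbp1, which binds Tbk1, rose by 0.42 ± 0.11 log2 (blocked adjusted p = 0.0422), with an SE of 1.07 without the block. The kinase Irak1, which acts with Myd88, fell by 0.29 on the log2 scale (0.0246), Traf6, its ubiquitin ligase partner, by 0.36 (0.0286), and Traf3, which links Ticam1 and Mavs to Tbk1, fell by 0.55 (0.0393). Irf3, the substrate of Tbk1, fell by 0.30 (0.0239), and Sigirr, an inhibitor of Toll-like receptor signalling, fell by 0.49 (0.00610). The interferon comparisons at 3 h and 6 h each use the controls of their own time, and the control comparison shares those arrays with them.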

How the data were processed

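Total RNA of 12 primary rat hepatocyte cultures was extracted with Trizol and RNeasy columns and, per the labels' protocols, hybridised as biotinylated cRNA to Affymetrix arrays. The authors deposited log2 probe set values. Per the submitters' processing notes, these come from RMA (affy, R 2.10.0). RMA equalizes intensity distributions between arrays, so a shift shared by most transcripts would not show. The sources used here do not give the probe set definition file.

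After 57 control probe sets were left out, 31042 entered limma 3.58.1 (R 4.3.3, lmFit and eBayes) in 1 fit over 4 groups, with two-sided p-values adjusted by Benjamini-Hochberg within each of 5 comparisons. They were interferon alpha minus control at 3 h, at 6 h, their difference and their average, and control at 6 h minus 3 h. The replicate number was then added as a block. In deviations from group means, arrays of the same number correlated at 0.651 to 0.829 within a time (6 pairs) and 0.479 to 0.736 across times (12 pairs), so the numbers pair the arrays, a pairing that comes from the titles and these data.

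Names came from the platform annotation: 20826 tested probe sets had 1 symbol, 436 several and 9780 were not listed. By Entrez identifier 20758 matched RefSeq (GRCr8), and 0 symbols changed. The brightest probe set by mean over 12 arrays speaks for a gene. All member probe sets are named, with pathway genes called in a treated comparison or with the block (else the 2 brightest per role) and the 3 nearest profiles of 3 members. Alternatives were blocks, limma-trend, median and quantile scaling, a filter on dim probe sets, fewer groups and left-out arrays. The members and lists were chosen with earlier results of these data known. The marker lists of liver endothelial, stellate, T and NK cells and neutrophils had array means between 3.43 and 5.07. Those of the B cell list lay between 3.88 and 4.265. Those of the plasmacytoid dendritic cell list, measured on Tcf4 and Il3ra alone, lay between 5.47 and 5.93.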

Additional observations from a re-analysis of the deposited data

How the results depend on the processing

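The member values were rerun 958 times in all, over 45 combinations of probe set and comparison. Direction and side of the threshold were kept in 904 reruns, 10 passed under the alternative alone, all in blocked fits, and 44 changed direction with 0 of them called. No main value that changed direction was larger than 0.22 log2. Without the block, the count of members that passed was 0 in each comparison under each alternative.

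With the replicate block, 2 member probe sets passed at 6 h, 1 in the average and 1 in untreated culture. Over all probe sets the block moved the counts from 2 to 30 at 3 h, 120 to 340 at 6 h, 135 to 341 for the average and 59 to 2529 in untreated culture. The block within each time gave 10, 341 and 399 for the first 3, with 2 members at 6 h and 1 in the average. At 3 h limma-trend, equal medians and the filter on dim probe sets gave 1 and the fit to the groups compared gave 0. That fit gave 69 at 6 h and 2 in untreated culture, where limma-trend gave 8. With 1 array left out, the counts were 0 to 23 at 3 h, 56 to 124 at 6 h, 103 to 156 for the average, 2 to 16 in untreated culture and 0 to 0 for the change between times. The blocked fit without replicate 1, 2 or 3, added after seeing the data, gave 112, 0 and 0 at 3 h, 291, 127 and 100 at 6 h, 330, 135 and 111 for the average, 18, 0 and 0 for the change between times, and 660, 581 and 497 in untreated culture. At 6 h and for the average, the counts without replicate 2 or 3 were thus well under the 340 and 341 of the whole blocked fit. Members that passed there were 1 at 6 h and 1 in the average without replicate 1, and 1 in untreated culture without replicate 2. The cause of these moves was not tested.

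Values that changed direction in that blocked fit were, without replicate 1, Tlr7 at -0.0911 (3 h), -0.0045 (6 h) and -0.0478 (average), the second probe sets of Ticam1 at -0.0210 and of Mavs at -0.0361 (average), and Zbp1 at 0.0232 (untreated). They were Zbp1 at -0.0496 (3 h) and Unc93b1 at -0.0582 (untreated) without replicate 2, and Mavs at 0.0028 (6 h) without replicate 3. With equal medians, the second Ticam1 probe set was at -0.0076 in the average. With 1 array left out, some ranges crossed 0. At 3 h these were Zbp1 -0.00419 to 0.141, Mavs -0.224 to 0.0425, Unc93b1 -0.0279 to 0.345 and Tlr7 -0.147 to 0.139. At 6 h these were Mavs -0.147 to 0.114, Ticam1 -0.371 to 0.126, Tlr7 -0.0394 to 0.258 and the second Mavs probe set -0.0922 to 0.0075. For the change between times these were Mavs -0.064 to 0.206, Ticam1 -0.0544 to 0.48 and Tlr7 -0.0575 to 0.279. For the average these were Mavs -0.123 to 0.0111, Tlr7 -0.0106 to 0.138 and the second Ticam1 probe set -0.034 to 0.0531. In untreated culture these were Zbp1 -0.131 to 0.0143 and Unc93b1 -0.18 to 0.193. Tlr7 values lie below the lower quartile of each array, which limits what they can show.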
